A study of Arabidopsis thaliana with 2 samples.

Results

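WAV3 (AT5G49665) and WAVH1 (AT2G22680) are a pair of related Arabidopsis thaliana genes that each received a peak with a high score when the transcription factor ERF115 was mapped on chromatin. The members are the peaks that the authors' annotated list assigns to these loci, 2 of 612 peaks in all. The pair was selected on the score and gene assignment of the peaks, so those values are given as a description. The cells carried 35S::ERF115-HBH, in which the constitutive 35S promoter drives tagged ERF115, and were dark-growing PSB-d suspension cells of the Landsberg erecta ecotype. Wild-type cells of the same culture, lacking the tagged protein, served as the mock. Both cultures grew with the auxin NAA and kinetin, were harvested 2 days after subculturing and were fixed with 0.75% formaldehyde for 10 minutes. Chromatin was recovered on nickel and streptavidin beads through the HBH tag, and DNA from 1 ERF115-HBH library and 1 mock library was sequenced. With 1 library in each group, no value has a replicate error, and overexpression in cultured cells limits what the list says of ERF115 in a root. Read depth is unknown, and a peak list cannot check the labelled cell type.

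WAV3 encodes a RING-type E3 ubiquitin ligase, an enzyme that passes ubiquitin to chosen proteins and so can mark them for degradation. WAVH1, WAVH2 and EDA40 are its closest relatives in Arabidopsis. The names table used here lists WAVH1 and WAVH2 as WAV3 homologs, while the place of EDA40 in the family is background knowledge that was not checked on sequence. Roots that lack WAV3 bend too strongly and grow in tight waves on tilted plates, and the gravity response is impaired further when WAVH1 and WAVH2 are lost as well. Root bending depends on auxin, which is carried by influx and efflux proteins and read by receptors of the TIR1/AFB family. ERF115 is known as a regulator of stem cell division and regeneration in roots.

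The WAV3 peak was the fifth highest of the list. It lay on chromosome 5, 20166197 to 20172350 (TAIR10), and had a score of 362.92. The score is the authors' MACS value, 10 times the negative log10 of the p-value of the peak. Whether the mock library was the control for that p-value was not checked here. Rank 5 places the peak within the highest 0.817% of the list, whose median score was 78.9 and quartiles 60.6 and 114. On chromosome 5 it was the second of 147 peaks. The next scores above were 371.99 at AT3G52470 and 440.95 at AFB2, an auxin receptor, and the next below were 314.2 at emb2737 and 312.65 at AT2G33690. WAV3 thus stood 9.07 score units under its upper neighbour and 48.72 above the next lower peak, at the end of the first steep part of the ranking.

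The WAVH1 peak ranked 11. It lay on chromosome 2, 9644818 to 9649170, with a score of 290.37, within the highest 1.80% of the list. It was the fourth of the 76 peaks on chromosome 2. Its neighbours in score were close. ABCG43, an ABC transporter gene, had 308.32 and WRKY18, which encodes a WRKY transcription factor of defence responses, had 297.48. Below it were WRKY26 with 287.33 and AT4G37480 with 285.51. WAVH1 was therefore 7.11 score units under rank 10 and 3.04 above rank 12, with no step in the ranking on either side.

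**Figure D1:**
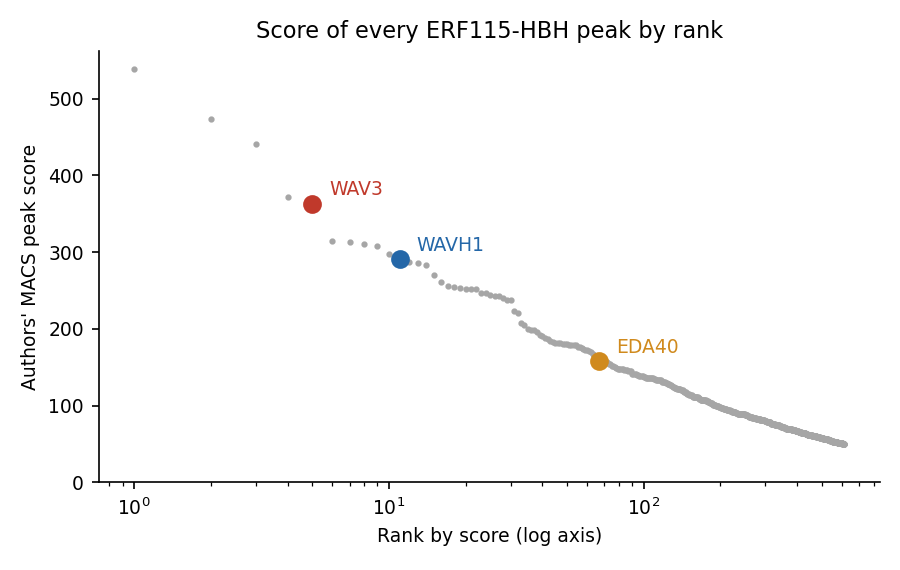
Score of each of the 612 ERF115-HBH peaks (vertical axis, authors' MACS score) against its rank (horizontal axis, log scale), 1 point per peak from 1 library. WAV3 at 362.92 ends the steep first part of the curve, WAVH1 at 290.37 lies on a flatter part, and the related EDA40 at 157.81 ranks 67.

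A peak was also assigned to EDA40 (AT4G37890), a relative outside the chosen pair, named for an arrest of embryo sac development. It lay on chromosome 4, 17811730 to 17815828, and scored 157.81, rank 67 of 612. This is above the upper quartile of the list but below WAV3 and WAVH1. The last relative, WAVH2 (AT5G65683), had no peak. In gene order the loci with a peak nearest to WAVH2 were AT5G64650, with 115 protein-coding genes between, and PSK5, with 20 between. PSK5 encodes a precursor of the peptide hormone phytosulfokine, and its peak scored 59.13. In all, 3 of the 4 genes of the WAV3 family had a peak, while 2.06% of the 27444 nuclear protein-coding genes did. The chosen pair makes up 2 of these 3 and had to be counted, so the share adds only EDA40 and WAVH2, of which 1 had a peak. All 3 family peaks scored at least 100, a level reached at 0.656% of the protein-coding genes. The pair was selected on its scores, so only the EDA40 peak adds to this count. The same 3 genes were counted when loci next to one with a peak were included, a rule that takes in 5.93% of the protein-coding genes.

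The 3 family peaks shared a class of location label, though not the full label. Each carried a coding label, read here as a position inside the peak that fell in coding sequence of the assigned gene. It was coding 5' at WAV3 and coding 3' at WAVH1 and EDA40. Coding labels were given to 20.6% of all peaks, against 64.1% with an intergenic label. Among the 20 highest peaks, WAV3 and WAVH1 included, 6 had a coding label and 13 an intergenic one. How the labels were assigned is not stated in the labels or file headers, and gene strand was not checked. WAV3 had the highest score of the 62 peaks labelled coding 5', a group with a median of 81.2. Among the 64 peaks labelled coding 3', median 81.9, WAVH1 ranked 4 and EDA40 ranked 8. Of the 126 coding peaks together, the 3 genes ranked 3, 5 and 15.

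**Figure D2:**
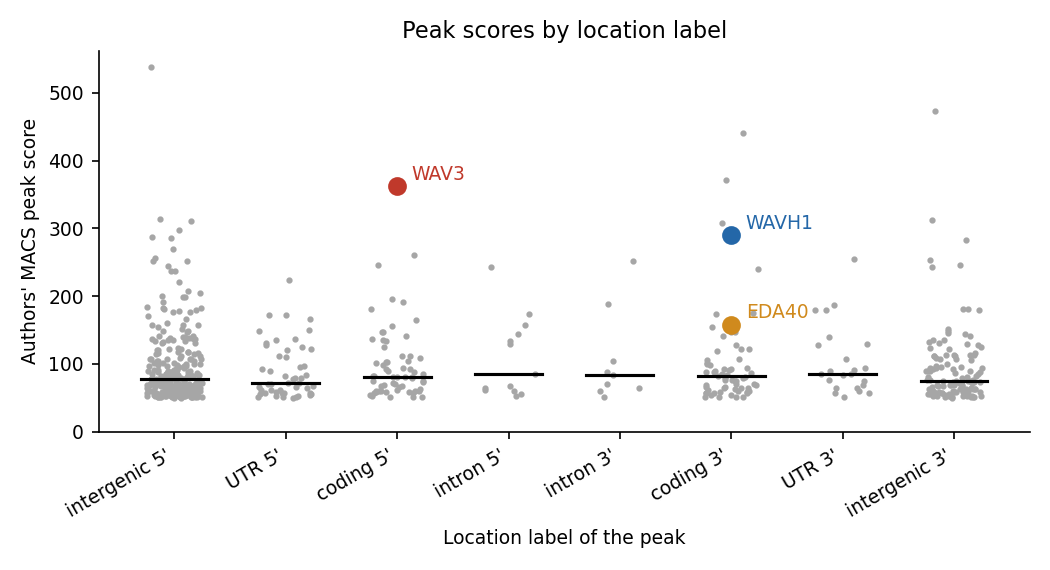
Scores of the 612 peaks (vertical axis, authors' MACS score) by location label (horizontal axis), with small points for peaks, spread sideways for visibility, and a black line at each label's median. WAV3 is the highest of the coding 5' peaks, and WAVH1 and EDA40 lie above the median of 81.9 in the coding 3' group.

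The peaks at the family genes were broad. The WAV3 peak spanned 6154 bp, 3.25 times the list median of 1894 bp, and was the fifteenth widest of all. The WAVH1 peak spanned 4353 bp, 2.30 times the median and rank 54 by width. EDA40 followed with 4099 bp and rank 62. The 20 peaks with the highest scores had a median width of 1849 bp, close to that of the whole list. Of those 20, 2 (10.0%) were wider than the WAV3 peak, beside 14 of all 612 peaks (2.29%). Likewise 5 of the 20 (25.0%) were wider than the WAVH1 peak, beside 53 of the 612 (8.66%). WAV3 itself is among those 5, and AT5G49700, which lies near WAV3, is in both counts of the 20. These small counts were not tested. AT3G52470, with 7941 bp, was the single peak both wider and higher in score than WAV3. The peaks both wider and higher than WAVH1 were AT2G44820, AT3G52470 and WAV3. Divided by width, the scores came to 59.0 per kb at WAV3, 66.7 at WAVH1 and 38.5 at EDA40, beside a list median of 41.1. On that scale WAV3 fell to rank 161, WAVH1 to 124 and EDA40 to 339, and the order of WAV3 and WAVH1 was exchanged. As the score is a log p-value, this quotient does not measure signal per base, and at equal score it is lower for a broader peak.

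**Figure D3:**
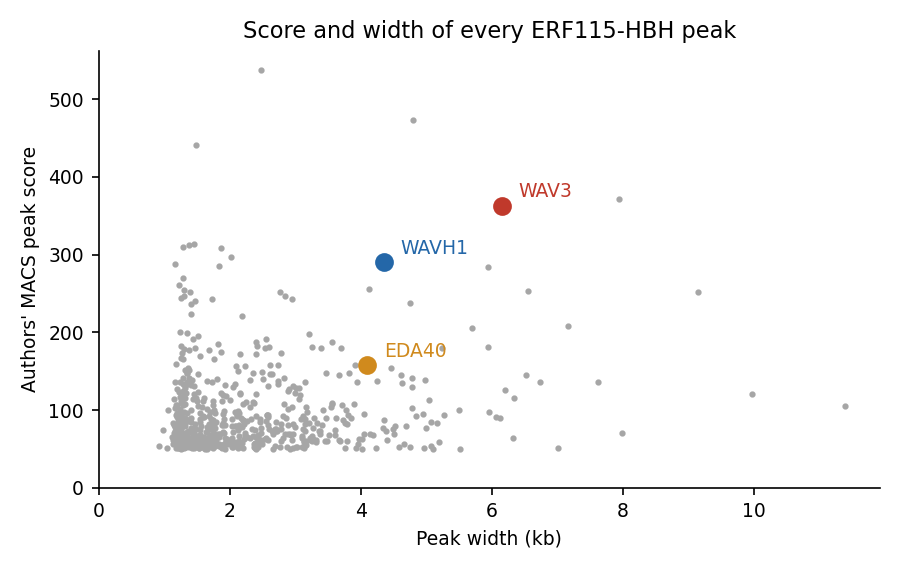
Score (vertical axis, authors' MACS score) against width in kb (horizontal axis) for each of the 612 peaks. WAV3, 6154 bp wide, and WAVH1, 4353 bp wide, lie to the right of most peaks of similar score, and EDA40, 4099 bp wide, lies lower.

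The authors give 1 position inside each peak, which was near the middle in both members. At WAV3 it was 20168953, with 2756 bp of the peak below it and 3397 bp above, or 44.8% of the way from the lower edge. At WAVH1 it was 9647284, with 2466 bp below and 1886 bp above, or 56.7% of the way. Both lay within the quartiles of the list, 39.1% and 59.3%, while EDA40 at 35.0% lay outside them. The distances from the midpoint were 320.5 bp at WAV3 and 290.0 bp at WAVH1, beside a list median of 209 bp. None of the 3 family peaks carried the mark TP, which stands beside 22 peaks in the authors' deposited table without an explanation in the file headers.

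Around WAV3 the peaks were crowded. There were 5 other peaks within 100 kb, measured between nearest edges, and 8.01% of all peaks had at least as many. The median over the list was 1. The 5 include 2 nearly touching peaks at PFD3, described below. With these taken as 1, WAV3 would have 4 others, a number that 15.5% of all peaks reached in the list as deposited. The count for WAV3 was 2 with a window of 50 kb, and 3 when only peaks scoring at least 100 were counted. The closest, 17.1 kb above on the chromosome, was the peak at AT5G49700, which the names table also calls AHL17, an AT-hook motif nuclear localized protein. It spanned 6556 bp, scored 253.8 at rank 19, was labelled intergenic 3' and carried the mark TP. On the other side, 24.8 kb away, MYB78, a MYB transcription factor gene, had an intergenic 5' peak of score 50.38. That is rank 608 and close to the list minimum of 50.01.

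The highest peak of the whole list lay 53.7 kb below WAV3, intergenic 5' of AT5G49560, with a score of 537.85. Farther out, 74.9 and 81.0 kb away, PFD3 had 2 intergenic 3' peaks of scores 97.29 and 115.61. The farther peak ended at 20085170 and the nearer began at 20085352, so they may be parts of a single region. They are counted separately here, as in the authors' list. PFD3 encodes a subunit of prefoldin, a chaperone that helps newly made actin and tubulin to fold. The 6 peaks, WAV3 included, lay within 112 kb, from 20083683 to 20196040, and covered 22.7% of that stretch. In gene order the stretch held 23 protein-coding genes, of which 5 had an assigned peak. Neither gene next to WAV3, AT5G49660 or AT5G49680, had one assigned, and overlap of the WAV3 peak with them was not checked. No further peak lay within 200 kb of WAV3. Of the 20 highest peaks, 3 had another of the 20 within 100 kb, and these were AT5G49560, WAV3 and AT5G49700.

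WAVH1 had fewer neighbours, and their highest score was 146.66, beside 537.85 around WAV3. Their median score was 137.12, beside 115.61 around WAV3. There were 3 other peaks within 100 kb, a number that 27.9% of all peaks reached. AT2G22790, 46.2 kb above, had a coding 3' peak of score 146.66. AT2G22590, 50.2 kb below, had a coding 5' peak of score 137.12, and 8 protein-coding genes separated each of these loci from WAVH1. AT2G22880, 91.1 kb above, had an intergenic 5' peak of score 70.21 that was 7976 bp wide. None of the 3 was among the 20 highest, and the WAVH1 score exceeded each of them. Both genes next to WAVH1, AT2G22670 and AT2G22690, had no peak assigned, and their overlap with the WAVH1 peak was not checked. The 4 peaks covered 10.7% of a stretch of 155 kb. That share depends on peak widths and on where the outermost peaks lie, so it does not measure how densely peaks stood. EDA40 had no other peak within 100 kb, as was the case for 150 of the 612 peaks.

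**Figure D4:**
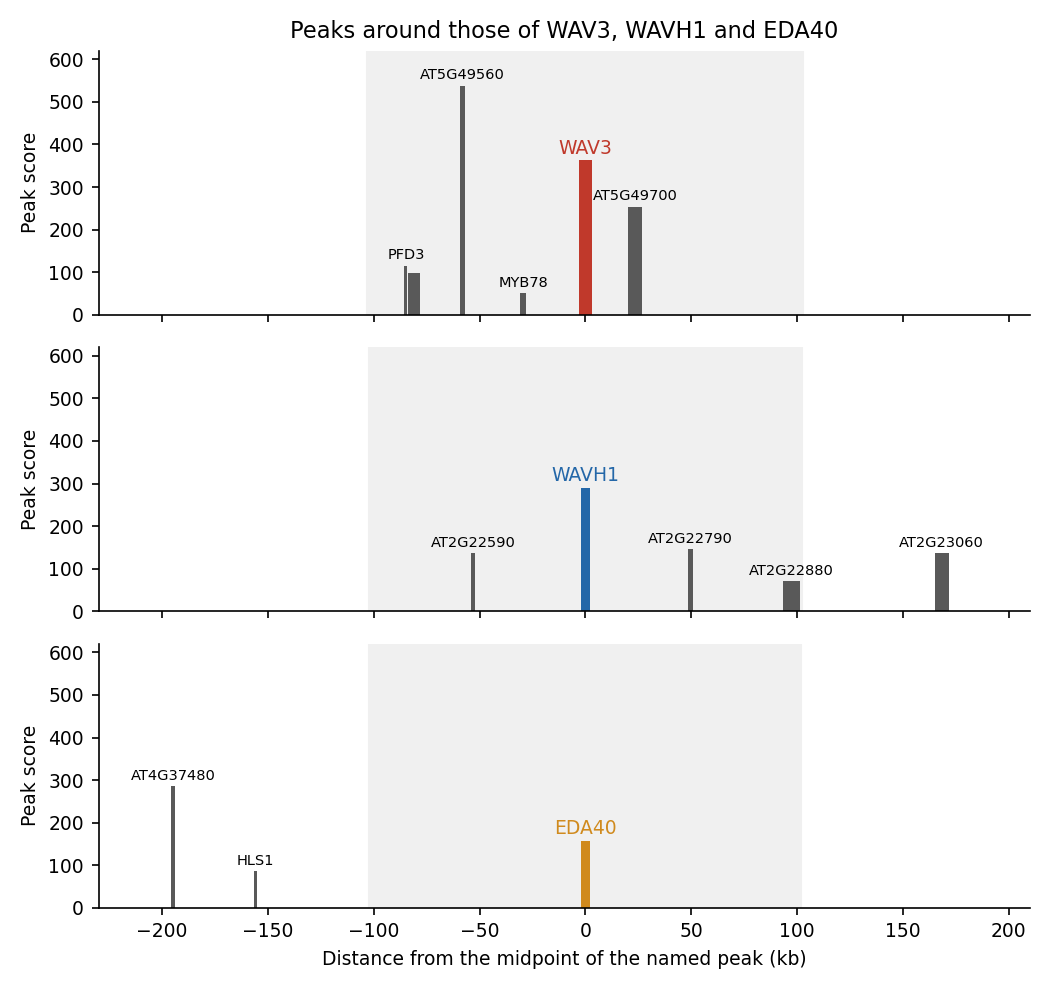
Peaks around WAV3 (top), WAVH1 (middle) and EDA40 (bottom), with distance in kb from the midpoint of the named peak on the horizontal axis and the authors' MACS score as bar height. Bars are drawn to the width of each peak and shading marks 100 kb from the edges of the named peak. WAV3 has 5 other peaks in the shaded range, WAVH1 has 3 and EDA40 none.

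**Figure D5:**
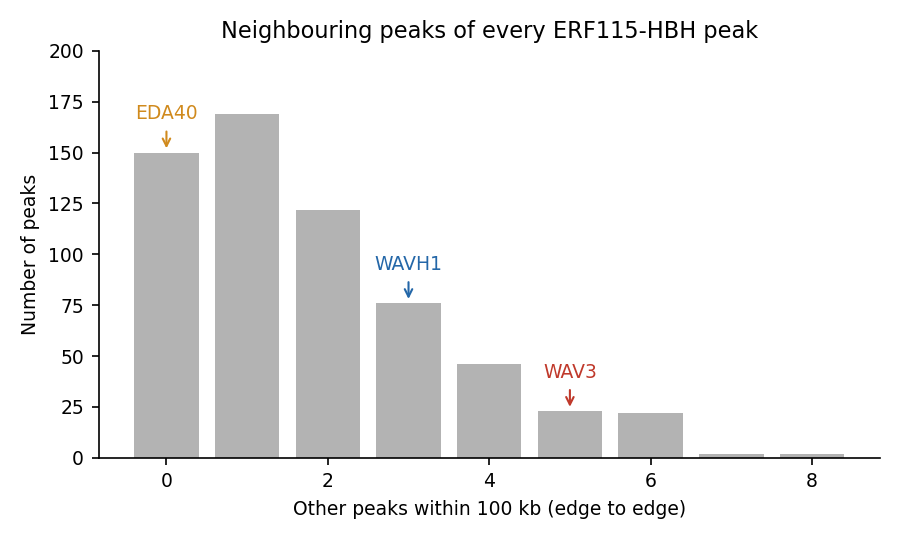
Number of peaks (vertical axis) by how many other peaks lay within 100 kb of them (horizontal axis), over all 612 peaks. Arrows mark EDA40 in the bar of 150 peaks with none, WAVH1 in that of 76 peaks with 3, and WAV3 in that of 23 peaks with 5.

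Other genes of root waving and gravity response were examined as a list of 26. It holds 7 genes of auxin transport, among them the influx carrier AUX1, and 5 genes of gravity signalling such as ARG1. It also holds 6 genes of auxin response, 3 kinase genes (PID, WAG1 and WAG2), the auxin receptors TIR1 and AFB2, and WAV2, another gene whose loss gives wavy roots. A peak was assigned to 1 of the 26, beside 2.06% of all protein-coding genes. It was AFB2, whose peak was already known when the list was drawn up, and no transport, kinase, gravity signalling or response gene of the list had one. AFB2 is the F-box subunit of an SCF ubiquitin ligase that targets repressors of auxin response. Its peak, on chromosome 3 from 9869684 to 9871162, was labelled coding 3' like those of WAVH1 and EDA40, but was 1479 bp wide and so narrower than all 3 family peaks. None of the other 25 genes gained a peak when loci next to one with a peak were counted. That rule takes in 5.93% of all protein-coding genes.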

How the data were processed

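Chromatin was purified from ERF115-HBH and mock cells, and 1 library of each was sequenced. The build was TAIR10 and MACS 1.4.2 and BWA 0.5.9 were among the tools, beside SAMtools 0.1.18, CASAVA 1.8.2 and Picard, per the submitters' processing notes, which state no parameters. The authors deposited a peak list with a score per peak, and an annotated copy with a Z score, a locus, a location label and a position. The lowest score, 50.01, equals a p-value of 9.98e-06 on the MACS scale. The Z score is the score standardised over the list. Values of the mock were not analysed here.

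Ranks, widths, distances and window counts were computed with Python 3.11.15 and pandas 2.3.3, and window counting was tested on simulated data. Coordinates are 1-based. Names and gene order come from an NCBI RefSeq table of assembly TAIR10.1, which held 600 of the 608 loci; none of its coordinates is printed. That table gives AT5G49665 no symbol, and it holds the intended name for 23 of the 26 gravity and waving genes; 1 further planned gene is not reported here. No sequences were used, so the planned motif and protein comparisons were not run. Named are the WAV3 family, all peaks within 100 kb of the pair, 2 peaks on each side in score order and list genes with a peak; AT2G44820 and the loci nearest or next to family genes were added after their values were seen. Members and lists were chosen with earlier results of these data known. No test was run, as the pair was chosen on its scores.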

Additional observations from a re-analysis of the deposited data

How the results depend on the processing

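No paired analysis was possible because the tagged and the mock group had 1 library each, and for the same reason no library could be left out. Of 22 alternatives run on 6 results, 14 left the value within its counting interval or within 1.5 times. Ordered by width, WAV3 ranked 15 and WAVH1 54, and ordered by score per width they ranked 161 and 124. Within its own chromosome WAVH1 stood at 5.26% of the peaks, against 1.80% over all chromosomes. With a window of 50 kb WAV3 had 2 other peaks in place of 5 and WAVH1 had 1 in place of 3. Among peaks scoring at least 100, WAV3 had 3. Windows of 200 kb, distances between midpoints or between the authors' positions, and the 306 peaks with higher scores kept each window count within 1.5 times. The counts of 3 family genes and of 1 gene in the gravity and waving list were the same under both of their alternatives. The alternative on promoter length was not run, since no promoter sequences were used. As read depth is unknown, a missing peak at WAVH2 or the auxin transport genes does not show that ERF115 was absent there.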

Other observations

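The 49 peaks with at least 5 others within 100 kb had a median score of 69.6, beside 80.6 for the other 563, and 2 of the 49 (4.08%) were among the 20 highest, beside 18 of the 563 (3.20%). These 2 were WAV3 and AT5G49560, so both came from the same stretch. Each had 5 others, and both counts include the 2 nearly touching PFD3 peaks. Of the 49 peaks, 24 lay on chromosome 3, which holds 172 peaks in all, and 17 on chromosome 5, which holds 147. Chromosome 1 had 3 of its 143 peaks among them, chromosome 4 had 5 of 74, and chromosome 2, which holds WAVH1, had none of 76. The 49 peaks were broader, with a median width of 2586 bp beside 1871 bp. These comparisons were chosen after the values were seen and are given without a test, as the windows of neighbouring peaks overlap.

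EDA40 stood alone within 100 kb, and the nearest peak on the list, 153 kb below, was an intergenic 5' peak of HLS1 with a score of 86.87. HLS1 (HOOKLESS1) is required for the apical hook, a bend of the dark-grown seedling stem. At 192 kb lay the peak of AT4G37480, with a score of 285.51 at rank 13, close in the ranking to WAVH1. HLS1 was named after its values were seen.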
